A study of Mus musculus with 2 samples.

Results

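The genes described here are 9 members of the matrix metalloproteinase family and of the family of their inhibitors: Mmp2, Mmp9, Mmp11, Mmp14, Mmp15, Mmp19, Timp1, Timp2 and Timp3. They were chosen by name, as Mmp and Timp genes that stand apart from the large Mmp gene cluster, and make up 9 of 21938 protein-coding genes of the mouse annotation. For each, every region of an Etv4 and of an Etv5 ChIP-seq list inside it or up to 50 kb away was taken, which gave 31 of 13636 Etv4 regions and 17 of 8297 Etv5 regions. The 2 libraries, 1 per antibody, came from EpRas cells, which are EpH4 mouse mammary epithelial cells transformed with H-Ras, kept in 4% serum and given TGF-β3 at 1 ng/ml for 1.5 h. Etv4 was precipitated with a rabbit polyclonal and Etv5 with a mouse monoclonal antibody. Both libraries were from treated cells of this line, so the lists carry no contrast of treatment or genotype, and with no replicate no difference between them could be tested. Each list says where reads were enriched and gives no height or read count, so the depth is unknown. Among markers of cell type, an Etv4 region lay within 2 kb of the start of 2 of 4 epithelial genes, Krt8 and Krt18 but not Epcam or Cdh1, and an Etv5 region at 1 of 4, Krt8. The same held for 0 of 4 fibroblast and 0 of 2 endothelial genes in both lists, and for immune genes at 1 of 3 in the Etv4 list, Cd68, and 0 of 3 in the Etv5 list. Of all coding genes, 15.4% had an Etv4 midpoint and 8.73% an Etv5 midpoint within 2 kb of the gene start. With so few markers at such shares, counts of 0 do not set cell types apart, and no difference between cell types was tested.

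Matrix metalloproteinases are zinc-dependent enzymes that cut collagens, laminins and other proteins of the extracellular matrix, and Timp proteins block them by binding to the active site. Mmp2 and Mmp9 are gelatinases, which degrade denatured collagen and basement membrane collagen. Mmp14 and Mmp15 are anchored in the cell membrane, and Mmp14 together with Timp2 activates the secreted precursor of Mmp2. Etv4 and Etv5 are transcription factors of the ETS family, which bind a GGAA core and often act beside AP-1, a dimer of Fos and Jun proteins.

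The sequences below show the 6 places around region midpoints that hold the ETS pattern (CAGGAAGT or CCGGAAGT, on either strand, within 500 bp centred on a region's midpoint). They are shown because each lies near the start of a neighbouring gene rather than of the metalloproteinase or inhibitor gene. Sequence is from mm10, 5′ to 3′, with the pattern in capitals. The place at Mmp15 is at the start of Usb1, the first 2 at Mmp19 are at Pym1 and the third is at Ormdl2. The second at Pym1 straddles the edge of its region.
Mmp14 (start of Mrpl52), chr14:54426899-54426928, minus strand: gagcaagggaaCCGGAAGTgggcgtggccc
Mmp15 (start of Usb1), chr8:95332281-95332310, minus strand: gttcctctgagCCGGAAGTgctctgtgggg
Mmp19 (Pym1, first), chr10:128748457-128748486, minus strand: ccccctccccgCCGGAAGTggagtcctcat
Mmp19 (Pym1, second), chr10:128748498-128748527, plus strand: gcccgctcacgCCGGAAGTggttcgggttc
Mmp19 (Ormdl2), chr10:128821593-128821622, plus strand: cctgtggtctcCAGGAAGTggccgactttc
Timp1 (near Mir5617), chrX:20863755-20863784, plus strand: attaggggaggCAGGAAGTgcatgtgaggc

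At least 1 Etv4 region lay in or within 50 kb of 8 of the 9 genes, against 53.4% of all protein-coding genes, and Mmp15 was the exception. For Etv5 this held for 7 of 9 genes, against 42.7%, and the exceptions were Mmp14 and Timp1. With a window of 10 kb it held for 4 genes, and with the longer 50%, or with the 50% of lowest region number, for 3 genes. With the 50% of lowest region number, Etv4 regions were found at 5 of the 9 genes. A pair, meaning an Etv4 and an Etv5 region sharing 1 bp or more, was found at 3 of 9 genes, Mmp9, Timp2 and Timp3, against 29.5%, and with a window of 100 kb at 5 of 9. None of the 9 genes lacked regions of both lists, which 40.4% of coding genes did. The shares of coding genes are those for the full lists and the window of 50 kb. None is given for the other windows or the shorter lists, so the counts with those settings have no matching share. Neighbouring regions and genes are not independent, and these counts were given no test.

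**Figure D1:**
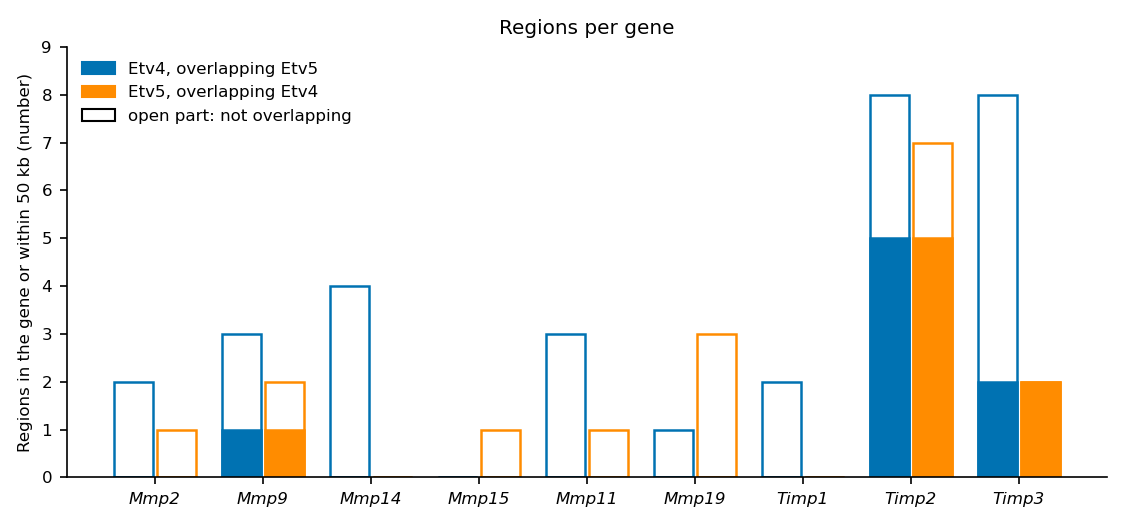
Number of Etv4 (blue) and Etv5 (orange) regions inside each gene or up to 50 kb away, 1 library per antibody and no error bars. The filled part of a bar counts regions that overlap the other list by at least 1 bp; Timp2 and Timp3 have 8 Etv4 regions each, and Mmp15 has none.

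The regions were spread unevenly. Timp2 had 8 Etv4 and 7 Etv5 regions and Timp3 had 8 and 2. Mmp14 had 4 and 0, Mmp9 had 3 and 2, and Mmp11 had 3 and 1. Mmp2 had 2 and 1, Timp1 had 2 and 0, Mmp19 had 1 and 3, and Mmp15 had 0 and 1. The 3 inhibitor genes together thus held 18 of the 31 Etv4 regions and the 6 enzyme genes 13. As many Etv4 regions as Timp2 and Timp3 had were found at 2.63% of coding genes, and as many Etv5 regions as Timp2 had at 0.903%. Both genes are long, and long genes have wider windows. Per 100 kb of window, Timp2 had 5.17 Etv4 regions and Timp3 had 5.36, rates reached by 4.24% and 4.04% of coding genes. The Etv5 rate at Timp2, 4.53 per 100 kb, was reached by 1.34%.

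**Figure D2:**
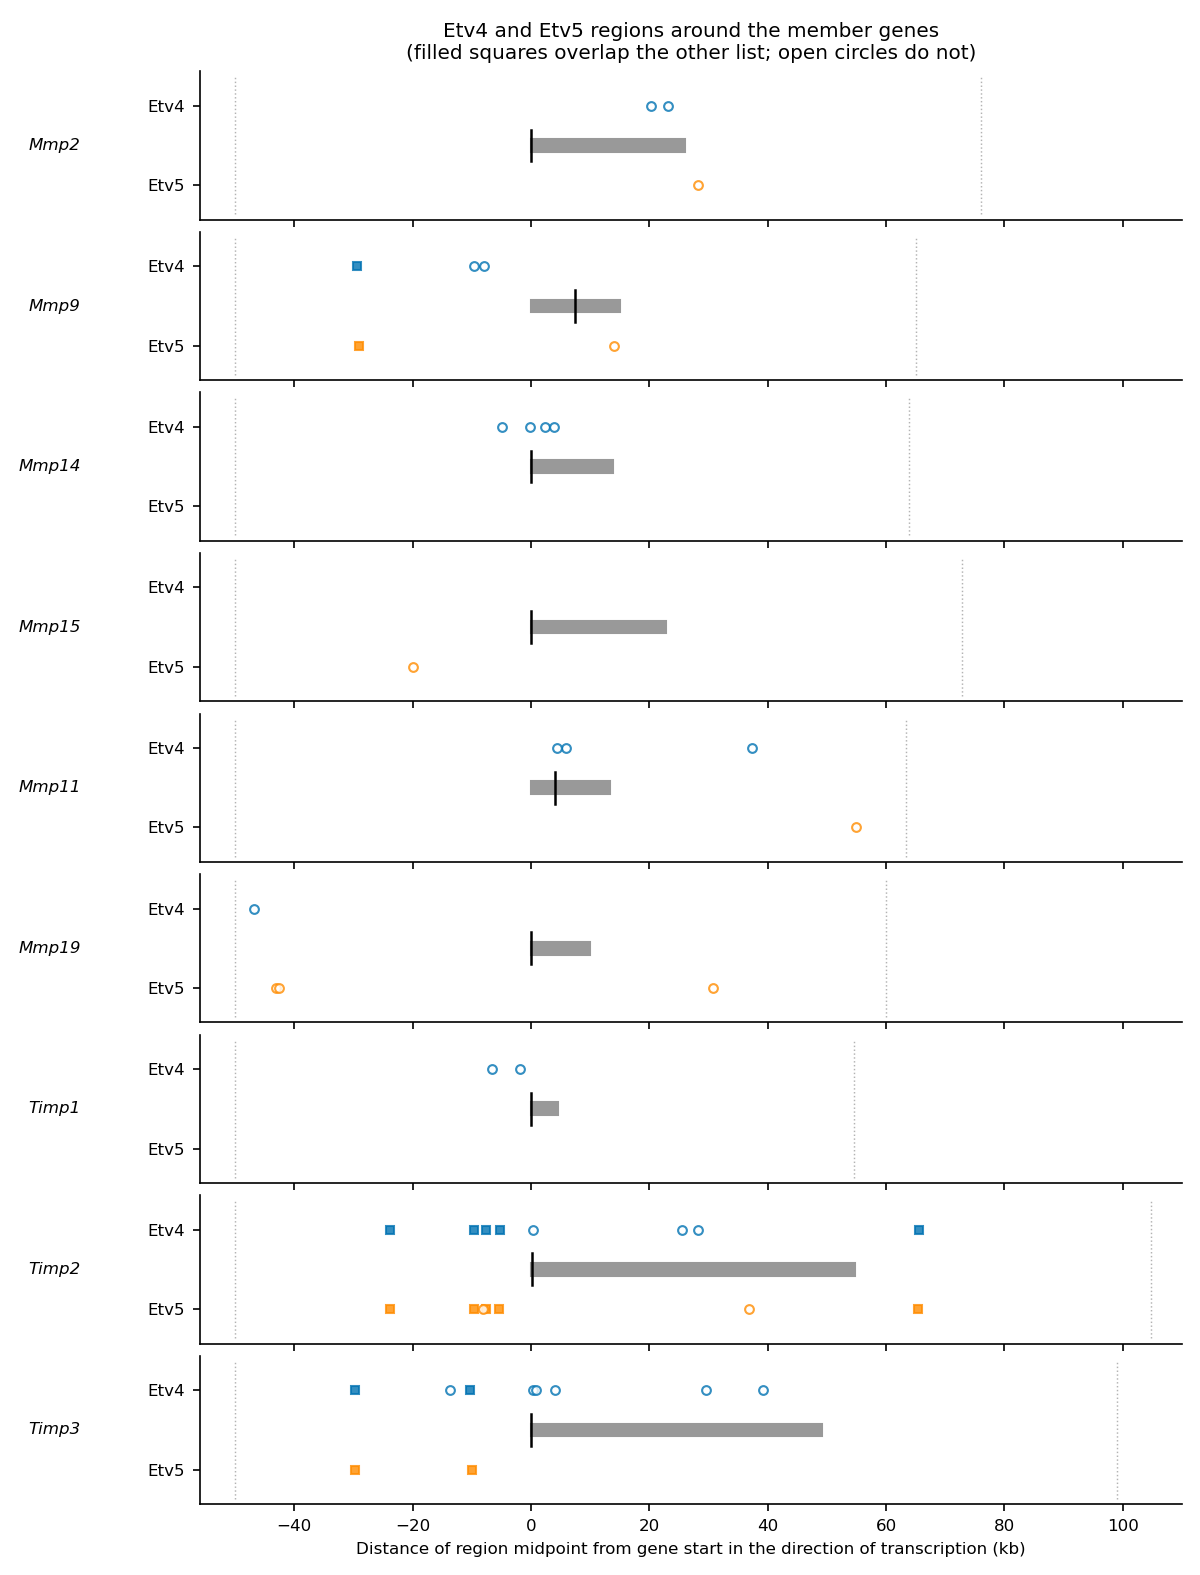
Midpoints of Etv4 (blue) and Etv5 (orange) regions along each gene, in kb from the gene start in the direction of transcription. Filled squares overlap the other list, open circles do not, grey bars are genes, black ticks are the starts of the principal transcripts and dotted lines end the windows of 50 kb. At Mmp14, Timp2 and Timp3 an Etv4 region sits on the gene start, where no Etv5 region is drawn.

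Region midpoints lay within 2 kb of the gene start for Etv4 at 4 of 9 genes, Mmp14, Timp1, Timp2 and Timp3, against 15.4% of coding genes, and for Etv5 at 0 of 9, against 8.73%. With the longer 50% of the list, an Etv4 region was at the start of 2 of the 9 genes, and no share of coding genes is given for that shorter list. The gene start is the outermost start in the annotation, which for Mmp9 lies 7.44 kb and for Mmp11 3.99 kb before the start of the principal transcript. Counted from the principal transcript, the numbers were 5 of 9 for Etv4, with Mmp11 added, against 15.7%, and 0 of 9 for Etv5, against 8.79%. Counted from any transcript start of the gene they were 5 of 9, against 17.9%, and 1 of 9, against 10.6%. The Etv5 region added in this way lay 338 bp from the start of a minor Mmp9 transcript, 6505 bp inside the principal start. Regions overlapped the gene body itself at 5 of 9 genes for Etv4, Mmp2, Mmp11, Mmp14, Timp2 and Timp3, against 23.0%, and at 2 of 9 for Etv5, Mmp9 and Timp2, against 14.7%.

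Timp2, an inhibitor that also takes part in activating Mmp2, had the most regions. The gene lies on the minus strand at chr11:118301069-118355740. An Etv4 region of 598 bp, chr11:118355172-118355769, spanned its start and overlapped no Etv5 region. Upstream, in sequence between genes, Etv4 midpoints lay 5306, 7532 and 9613 bp and 23.8 kb before the start, and each of these 4 regions overlapped an Etv5 region. The Etv5 midpoints lay 5431, 7569 and 9587 bp and 23.8 kb before the start, so that midpoints in a pair were 125, 37, 26 and 14 bp apart. A further Etv5 region, at 8117 bp, had no Etv4 partner. Measured from the outermost gene starts, the Timp2 region at 5431 bp was the nearest of the Etv5 list to any of the 9 genes, while the Mmp9 region described above lay nearer to a minor transcript start. In the introns of Timp2, Etv4 regions lay 25.5 and 28.2 kb and an Etv5 region 36.8 kb from the start, without overlap. The remaining pair was at the start of Usp36, a gene for a deubiquitinating enzyme, 65.6 kb from the Timp2 start by its Etv4 midpoint.

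**Figure D3:**
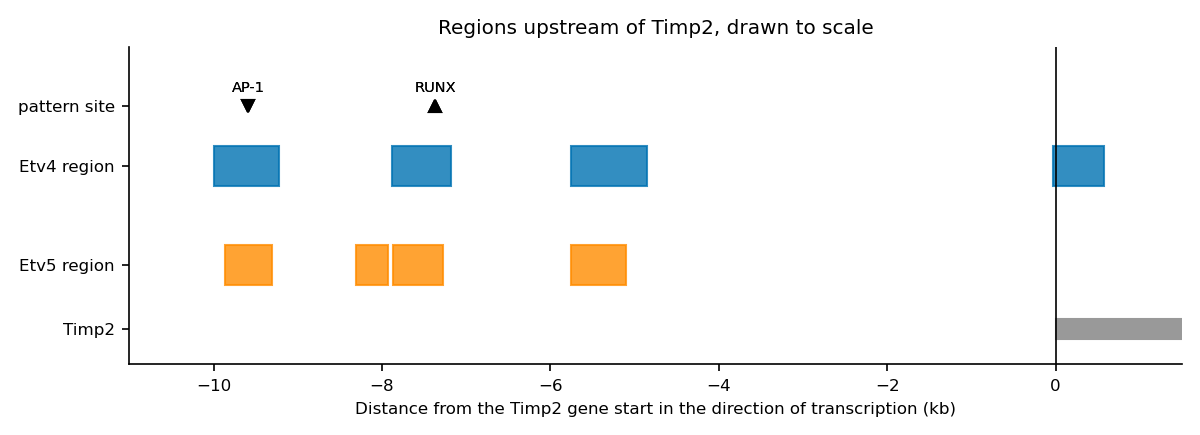
Etv4 (blue) and Etv5 (orange) regions before the Timp2 start, drawn to scale in kb from the gene start (black line), with the gene in grey. Triangles are AP-1 and RUNX patterns inside regions; the 3 pairs lie at 5.31, 7.53 and 9.61 kb by their Etv4 midpoints, and the Etv4 region on the start has no Etv5 region.

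The upstream pairs differed in the short patterns they held. AP-1 (TGACTCA or TGAGTCA) was at the pair of 9.61 kb, in 1 place, and at that of 23.8 kb, in 2 places. RUNX (TGTGGTT or TGTGGTC) was at the pairs of 7.53 and 23.8 kb. The pair at 5.31 kb held none of these patterns and no ETS pattern. No ETS pattern lay within 500 bp around the midpoint of any of the 8 Etv4 and 7 Etv5 regions at Timp2. The sequences of the pairs are given because both antibodies returned them; capitals mark AP-1 and RUNX patterns and, for the centres of pairs, also the looser ETS cores AGGAAA and AGGAAG, as well as CGGAAA and CGGAAG.
Timp2, 5.31 kb before the start, centre of the pair, chr11:118361071-118361270, plus strand: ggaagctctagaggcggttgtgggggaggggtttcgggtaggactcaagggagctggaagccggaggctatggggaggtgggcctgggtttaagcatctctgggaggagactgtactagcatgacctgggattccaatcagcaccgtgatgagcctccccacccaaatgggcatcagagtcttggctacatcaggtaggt
Timp2, 7.53 kb, centre of the pair, chr11:118363209-118363408, plus strand: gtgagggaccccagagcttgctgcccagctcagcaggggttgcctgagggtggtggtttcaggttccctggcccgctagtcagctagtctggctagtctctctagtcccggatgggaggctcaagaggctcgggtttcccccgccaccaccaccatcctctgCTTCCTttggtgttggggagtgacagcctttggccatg
Timp2, 9.61 kb, around AP-1, chr11:118365279-118365385, plus strand: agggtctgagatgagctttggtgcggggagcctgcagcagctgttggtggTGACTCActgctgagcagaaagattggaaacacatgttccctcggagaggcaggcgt
Timp2, 23.8 kb, around AP-1, chr11:118379336-118379442, plus strand: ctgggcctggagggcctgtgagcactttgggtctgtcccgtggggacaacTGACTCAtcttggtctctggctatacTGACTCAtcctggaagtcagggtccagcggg

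Timp3, an inhibitor that stays bound to the matrix, lies at chr10:86300372-86349506 on the plus strand, inside an intron of the synapsin gene Syn3, which runs the other way. All 8 Etv4 regions had the Timp3 start as their nearest coding start. Among them, chr10:86300351-86300948 spanned the start and the next had its midpoint 892 bp inside. Others lay 3987 bp, 29.6 kb and 39.2 kb inside the gene and 10.2, 13.7 and 29.7 kb before it. The Etv5 list had 2 regions, at 9.97 and 29.8 kb before the start, and both overlapped Etv4 regions. The far pair had 548 bp in common, the whole of its Etv5 region, and the near pair 211 bp, or 36.7% of its Etv4 region. The far pair held a RUNX pattern, while the near pair held no ETS, AP-1 or RUNX pattern. In 500 bp around the midpoint, looser ETS cores numbered 5 in the Etv4 and 6 in the Etv5 region of the far pair. In the near pair they numbered 1 and 0. Such cores are common and do not mark out a pair. They were in 25 of 31 Etv4 regions, or 80.6%, against 81.5% of the whole list. For Etv5 it was 13 of 17, or 76.5%, against 79.1%. The centre of the far pair is shown because it is the closer match between the lists at this gene, with looser ETS cores and RUNX in capitals.
Timp3, 29.7 kb before the start, centre of the pair, chr10:86270501-86270700, plus strand: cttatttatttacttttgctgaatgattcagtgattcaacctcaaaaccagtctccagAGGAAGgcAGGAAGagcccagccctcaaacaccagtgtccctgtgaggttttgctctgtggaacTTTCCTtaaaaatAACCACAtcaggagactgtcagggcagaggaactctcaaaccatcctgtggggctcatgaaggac

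Timp1, a secreted inhibitor, lies within Syn1 at chrX:20870166-20874735 and had 2 Etv4 regions and no Etv5 region. Their midpoints were 1.80 and 6.51 kb before the start. The nearer held an AP-1 pattern. The farther held ETS, AP-1 and RUNX patterns and was the only region of the 31 and 17 with all 3, its AP-1 pattern falling in a coding exon of Syn1. It was also among the last of its list, with a region number of 13187, at 96.7% of the list.

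Mmp14, the membrane-type enzyme, lies at chr14:54431612-54445364 and had 4 Etv4 regions. The region chr14:54431207-54431770 spanned its start, with its midpoint 123 bp upstream, and was the earliest of the 4 in the list, at 27.2%. It held no ETS, AP-1 or RUNX pattern. Further regions lay 2436 and 3829 bp inside the gene, the latter with 2 AP-1 patterns. Over its whole length of 610 bp the latter also held an ETS pattern, outside the 500 bp searched and so not printed or counted with the others. The region 4.91 kb upstream lay on the start of Mrpl52, which encodes a mitochondrial ribosomal protein, and held the ETS pattern printed above. No Etv5 region was listed within 50 kb.

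Mmp9, a gelatinase, had no Etv4 region in its gene, which is annotated at chr2:164940780-164955850. Etv4 regions lay 8014 and 9563 bp before the outermost start, or 15.5 and 17.0 kb before the principal start. The region at 8014 bp was 887 bp long, stood at 11.8% of the list and held an AP-1 pattern. The overlapping pair of this gene lay 29.3 kb upstream by its Etv4 midpoint, on the start of Zfp335, a zinc finger gene. Its Etv4 region, 1402 bp, was the longest of the 31 and stood at 1.45% of the list, the earliest of them. Mmp11, an enzyme first described in the stroma of tumours, had Etv4 regions 419 and 1875 bp inside the start of its principal transcript, of which the latter held AP-1, and another in an intron of Smarcb1. Its Etv5 region was 55.0 kb from the gene start and stood at 97.6% of the list. Mmp2 had 2 Etv4 regions in introns, 20.3 and 23.1 kb from its start, with no ETS, AP-1 or RUNX pattern, and an Etv5 region on the start of Lpcat2.

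At Mmp15 and Mmp19 every region lay on the start of another gene. The Etv5 region at Mmp15 was on Usb1, 19.9 kb upstream. At Mmp19 the Etv4 region was on Dgka, 46.8 kb upstream, and the Etv5 regions were on Pym1, 43.1 and 42.6 kb upstream, and on the starts of Ormdl2 and Sarnp, 30.8 kb downstream. The list does not say which gene a region acts on, and distance alone assigned these to Mmp15 and Mmp19.

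AP-1 patterns beyond the Timp2 pairs are shown for the places nearest to these genes or inside them, with AP-1 and RUNX patterns in capitals. The Mmp9 place lies between genes and the Timp1 place within Syn1, and the others are in introns of the named genes.
Mmp9, 8.01 kb before the gene start, chr2:164932731-164932837, plus strand: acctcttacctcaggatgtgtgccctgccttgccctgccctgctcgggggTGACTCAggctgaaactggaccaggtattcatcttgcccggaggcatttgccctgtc
Mmp14, intron, first, chr14:54435318-54435424, plus strand: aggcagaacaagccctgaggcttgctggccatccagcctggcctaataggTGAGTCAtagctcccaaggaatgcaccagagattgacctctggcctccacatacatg
Mmp14, intron, second, chr14:54435567-54435673, plus strand: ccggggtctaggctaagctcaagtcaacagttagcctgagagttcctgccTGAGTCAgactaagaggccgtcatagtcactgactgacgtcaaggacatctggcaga
Mmp11, intron, chr10:75930468-75930574, plus strand: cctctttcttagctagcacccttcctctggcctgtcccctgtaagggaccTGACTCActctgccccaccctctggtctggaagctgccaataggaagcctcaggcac
Timp1, before the start, chrX:20868166-20868272, plus strand: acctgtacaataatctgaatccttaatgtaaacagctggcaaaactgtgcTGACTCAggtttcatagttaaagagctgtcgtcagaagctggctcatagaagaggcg
Timp2, intron, chr11:118330161-118330267, plus strand: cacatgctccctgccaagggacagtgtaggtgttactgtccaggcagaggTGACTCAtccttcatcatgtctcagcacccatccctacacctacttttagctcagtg
Timp3, intron, chr10:86339627-86339733, plus strand: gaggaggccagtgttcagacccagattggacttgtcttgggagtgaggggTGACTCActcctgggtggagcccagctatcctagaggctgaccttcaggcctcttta

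Over all 9 genes, the ETS pattern was in 2 of 31 Etv4 regions, 6.45% with an exact (Clopper-Pearson) 95% interval of 0.791 to 21.4%, against 10.2% of the whole list. It was in 3 of 17 Etv5 regions, 17.6% (3.80 to 43.4%), against 7.93%. For Etv5 it was 0 of 8 with a window of 10 kb and 0 of 7 in the longer 50% or the first 50% of the list, and for Etv4 0 of 14 and 0 of 15 in these shorter lists. All 5 regions with the ETS pattern lay within 2 kb of a transcript start. They were 2 of 14 such Etv4 regions, or 14.3%, and 3 of 8 such Etv5 regions, or 37.5%. In the whole lists, 13.5% and 10.4% of such regions held it. For the Timp1 region the start was that of Mir5617, 477 bp away, and the nearest coding start, of Araf, was 5936 bp away. By coding starts alone, that region lay beyond 2 kb. Beyond 2 kb of any transcript start, the ETS pattern was in 0 of 17 Etv4 regions, an interval up to 19.5%. For Etv5 it was in 0 of 9, an interval up to 33.6%. The whole lists had it in 8.27% and 6.70% of such regions. AP-1 was in 10 of 31 Etv4 regions, 32.3% (16.7 to 51.4%), against 37.4%, and in 2 of 17 Etv5 regions, 11.8% (1.46 to 36.4%), against 35.8%. Both Etv5 regions with AP-1 were at Timp2. With a window of 100 kb, AP-1 was in 7 of 24 Etv5 regions, or 29.2%, and among the longer 50% of the list in 2 of 7, or 28.6%. Searching 200 bp in place of 500 bp left ETS in 0 of 31 Etv4 and 1 of 17 Etv5 regions, or 5.88%, and AP-1 in 6 of 31 Etv4 regions, or 19.4%. RUNX was in 10 of 31 and 6 of 17 regions, or 32.3% and 35.3%, against 24.7% and 23.9%. These counts are of 500 bp around the midpoint, and in a Timp3 intron the RUNX pattern lay outside its Etv4 region. A looser ETS core, as spelled out for the Timp2 pairs, and AP-1 within 20 bp of each other occurred in 0 of 31 and 0 of 17 regions, against 5.28% and 4.97%. Other spellings around the ETS core were not searched for beside AP-1. These intervals cover counting error only, and overlapping regions of the lists share their sequence. Spelled backwards and so not a binding sequence, TGAAGGAC or TGAAGGCC was in 3 of 31 Etv4 and 2 of 17 Etv5 regions, against 3.60% and 3.81% of the lists.

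In 300 bases of promoter, from 250 before to 50 after the gene start, the ETS pattern was present in Timp1 alone, 1 of 9 genes against 7.86% of coding genes. AP-1 was present in Mmp19 alone, 1 of 9 against 4.59%, and RUNX in 0 of 9 against 8.68%. None of the 3 genes with an Etv4 region on the start, Mmp14, Timp2 and Timp3, had any of these patterns in this window. Each had 2 of the looser ETS cores there, which were present in 6 of 9 genes, against 65.6% of coding genes.

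Most of the overlapping regions were at Timp2, where 5 of 8 Etv4 and 5 of 7 Etv5 regions overlapped the other list, with 1 of these pairs at the start of Usp36. At Timp3 it was 2 of 8 and 2 of 2, at Timp1 0 of 2 Etv4 regions, and at the Mmp genes together 1 of 13 and 1 of 8. Over all 9 genes the shares were 25.8% of Etv4 regions (11.9 to 44.6%), against 37.8% of the list, and 47.1% of Etv5 regions (23.0 to 72.2%), against 63.2%. Among the longer 50% of each list the shares were 50.0% and 100%, with as many Etv4 as Etv5 regions the Etv4 share was 42.1%, in the first 50% by region number the Etv5 share was 71.4%, and with a window of 10 kb the Etv4 share was 16.7%. The shares of whole lists given here are always those of the full lists. Region numbers, whose criterion the sources used here do not give, moved with this. Overlapping Etv4 regions stood at a median of 15.7% of the list and had a median length of 740 bp, and the others stood at 63.6% with 479 bp. For Etv5 the medians were 34.4% and 600 bp against 73.0% and 385 bp. The part of length or of region number in the overlap was not tested.

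**Figure D4:**
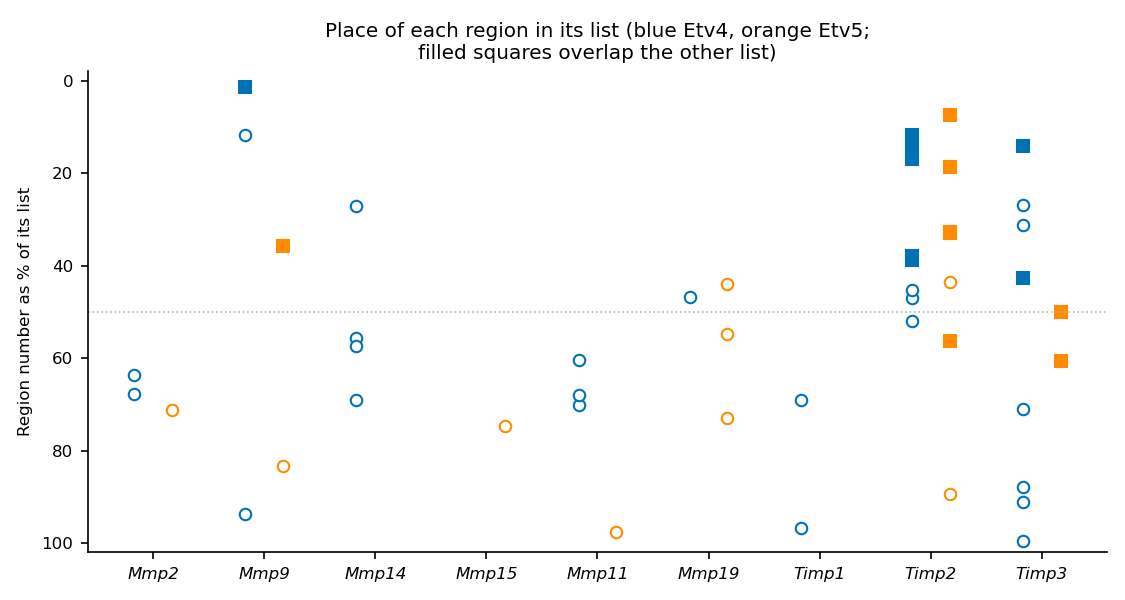
Region number of every region as a percentage of its list, by gene, for Etv4 (blue) and Etv5 (orange). Filled squares overlap the other list and open circles do not; overlapping Etv4 regions all stand at 42.6% of the list or earlier, while the others run from 11.8 to 99.6%.

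By place, 14 of 31 Etv4 regions, or 45.2% (27.3 to 64.0%), had their midpoint within 2 kb of a transcript start, against 36.4% of the list. For Etv5 it was 8 of 17, or 47.1% (23.0 to 72.2%), against 33.0%. With a window of 10 kb it was 2 of 8, or 25.0%, and among the longer 50% of each list it was 2 of 7, or 28.6%. Among the longer 50%, the Etv4 share was 4 of 14, or 28.6%. The start was that of the gene itself for 9 of these 14 Etv4 regions and 1 of these 8 Etv5 regions. Likewise the nearest coding start was that of the gene itself for 21 of 31 Etv4 and 7 of 17 Etv5 regions. No region was mostly made of sequence that recurs in the genome; the highest share of recurring 36-base sequences was 3.12%.

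Of 20 other genes of matrix proteolysis and its control, 16 had an Etv4 region in the gene or within 50 kb, 11 an Etv5 region and 9 an overlapping pair, against 53.4%, 42.7% and 29.5% of all coding genes. A midpoint lay within 2 kb of the gene start at 6 of the 20 for Etv4, against 15.4%, and at 4 of the 20 for Etv5, against 8.73%. With a window of 10 kb, or with the 50% of lowest region number, 7 of the 20 had an Etv5 region and 5 a pair. No share of coding genes is given for those settings, and none of these counts was tested. Mmp16, Mmp17 and Reck, a membrane-bound inhibitor, had no region of either list. Adam17, a sheddase, had an overlapping pair at 120 and 264 bp from its start. Mmp28 had an Etv5 region 475 bp from its start, which overlapped no Etv4 region. Adamts1, a secreted protease that cuts proteoglycans, had regions of both lists within 2 kb of its start, and Plau and Plaur, which encode urokinase and its receptor, had Etv4 regions 128 and 244 bp from theirs. The nearer Etv4 region at Furin, a convertase that activates membrane-type metalloproteinases, lay 1224 bp from its start.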

How the data were processed

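ChIP-seq libraries were amplified by 15 PCR cycles, selected for size and read on an Ion Proton. The submitters' processing notes name Bowtie and mm10. The authors called regions per library with CisGenome in its one-sample mode, without an input library, so local copy number or open chromatin was not subtracted. The score that the authors deposited is 1000 throughout and was not used as a measurement. The deposited region number, from 1 upwards, has no stated criterion. Depth is unknown.

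Gene models were from GENCODE and sequence from GRCm38, the assembly of mm10. Distances ran from region midpoint to gene start. Overlap required 1 bp. Positions beyond 2 kb of a transcript start were classed as exon, intron or intergenic. The 9 genes, the 20 further genes, the markers and the patterns were chosen with earlier results of these data known. All regions at the 9 genes are reported. Of the further genes, those without regions and those with a region at the start are named, except for a result that is not reported here. Starts of principal and of any transcripts were added after seeing the data. Functions for overlap and pattern search were tested on simulated data, where 438 of 438 overlaps and 500 of 500 sites were found among 1000 regions and 1000 sequences. Python 3.11.15, numpy 2.4.6, scipy 1.17.1, numba 0.67.0 and matplotlib 3.10.9 were used. Other measurements of the study were not used here.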

Additional observations from a re-analysis of the deposited data

How the results depend on the processing

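No paired analysis was possible because there was 1 library per antibody, and no test was made. Of 158 alternative values, 133 stayed within 1.5 times the count or within the interval of the share, and 25 did not. With the longer 50% of each list, Etv4 and Etv5 regions at the 9 genes numbered 14 and 7, genes with an Etv5 region 3, genes with an Etv4 region at the start 2, overlapping shares 50.0% and 100%, and ETS shares 0% and 0%. With the first 50% by region number, regions numbered 15 and 7, genes with a region 5 and 3, further genes with an Etv5 region 7 and with a pair 5, and ETS shares were 0% and 0%. These lists are shorter by construction. With as many Etv4 as Etv5 regions, 19 Etv4 regions remained at the genes. With a window of 10 kb, Etv5 regions numbered 8, genes with an Etv5 region 4, the Etv5 ETS share was 0%, and further genes with an Etv5 region were 7 and with a pair 5. With 100 kb, 5 of the 9 genes had a pair. Searching 200 bp gave ETS shares of 0% for Etv4 and 5.88% for Etv5 and an Etv4 AP-1 share of 19.4%. Any transcript start of the gene, chosen after seeing the data, gave 1 gene with an Etv5 region at the start. Some shares that stayed within their interval still moved by over 1.5 times. Near a start, these were 25.0% of Etv5 regions with 10 kb, and 28.6% of both lists among the longer 50%. The overlapping share was 16.7% of Etv4 regions with 10 kb, 42.1% with equal numbers, and 71.4% of Etv5 regions in the first 50%. AP-1 was in 3 of 15 Etv4 regions in the first 50%, and in 29.2% (100 kb) and 28.6% (longer 50%) of Etv5 regions. ETS was in 3.23% of Etv4 regions by CCGGAAGT alone. With 31 and 17 regions, the interval of every share with all regions contained the share of the whole list.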
